A study of Mus musculus with 40 samples.

Results

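The genes described here are the nuclear genes for 4 of the complexes of oxidative phosphorylation in the mouse B lineage of the bone marrow. They are all protein-coding genes of the count table whose symbols start with Nduf, Uqcr or Atp5, together with Sdha, Sdhb, Sdhc, Sdhd and Cyc1, and the rule itself uses no measured value. The rule gave 76 of the 21958 genes. By role they were 7 core subunits, 29 accessory subunits and 8 assembly factors of complex I, the 4 subunits of complex II, 9 subunits of complex III, 17 genes of the ATP synthase, and the pair Ndufa4 and Ndufa4l2. The 17 were placed by symbol, and among them Atp5s is listed as Dmac2l in RefSeq. A count was recorded for every one of the 76 genes in at least 6 of the 40 libraries. Ndufa4l2, with 61 counts in all, fell below the filter on low counts, and the other 75 entered every test reported with all libraries.

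In the inner mitochondrial membrane, complex I takes electrons from NADH and complex II takes them from succinate. Both pass them through ubiquinone to complex III and on by cytochrome c to complex IV, and the proton gradient that results drives the ATP synthase. Core subunits carry the catalysis, accessory subunits surround and stabilise the core, and assembly factors help to build the complex without staying in it. Dividing B-cell progenitors rely on mitochondrial metabolism, and small resting precursors do so at a lower rate.

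The study measured RNA by Smart-seq2 in B-lineage cells of mouse bone marrow chimeras. CD45.1 hosts had been lethally irradiated and had received marrow that was either wild type (WT) or homozygous for P198A, a CRISPR/Cas9 change of one residue in the zinc transporter ZIP7, encoded by Slc39a7. After 8 weeks, CD45.2+ donor cells of 5 mice per genotype were sorted into 4 fractions, 100 cells to a library: pro-B cells (FrB; CD43+, CD24+, BP1-), FrC, with a gate not given in the sources used here, late pre-B cells (FrD; CD43-, IgM-, IgD-) and immature B cells (FrE; CD43-, IgM+, IgD-). The titles abbreviate the mutant as KO although the allele changes one residue, and a change of one residue need not alter how much Slc39a7 RNA a cell holds, which leaves the genotype labels without a check by expression. Both genotypes were studied only as donor marrow in irradiated hosts, with ages of donors and hosts not given in the sources used here. WT mice carry the numbers 1, 2, 3, 6 and 7 and mutant mice the numbers 4, 5, 8, 9 and 10.

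Libraries held 42111 to 43372070 gene counts, with a median of 16474388. Genes with 1 to 9 counts made up over 15% of those detected in 10 libraries, called low-complexity libraries below. They were the FrB libraries of mutant mice 4, 8, 9 and 10, the FrC libraries of mutant mice 5, 9 and 10, the FrE libraries of mutant mouse 9 and WT mouse 7, and the FrD library of WT mouse 3. B-lineage marker genes (8, such as Cd79a) were detected in each group, with a summed level of 3271 to 28410 CPM (counts of a gene scaled to 1000000 gene counts in a library). In FrB this sum was 9407 to 11530 CPM in WT and 3491 to 7424 CPM in mutant libraries, without overlap. The 8 genes did not all differ in that direction: the mean of Ebf1 in FrB was 279.5 CPM in WT and 659.8 CPM in mutant libraries. Granulocyte and monocyte markers (20 genes) also differed between libraries: in FrB their sum was 130.4 to 12120 CPM in WT and 2724 to 59950 CPM in mutant libraries, and none of the 20 was at 0 throughout a group. In FrC it was 60.97 to 891.7 CPM in WT and 37.61 to 30620 CPM in mutant libraries, in FrD 62.25 to 76940 CPM in WT and 12040 to 23590 CPM in mutant libraries, and in FrE 42.42 to 6366 CPM in WT and 33.77 to 74010 CPM in mutant libraries. Erythroid markers (12 genes) summed in FrB to 2420 to 24080 CPM in WT and 394.0 to 12580 CPM in mutant libraries. For FrC the erythroid sum was 1341 to 7099 CPM in WT and 524.3 to 80320 CPM in mutant libraries. For FrD it was 424.6 to 33300 and 1094 to 7563 CPM, and for FrE 141.8 to 20710 and 306.6 to 7821 CPM, in the same order. The sum of 8 plasma cell markers in FrB was 17960 to 53370 CPM in WT and 979.7 to 12910 CPM in mutant libraries. Markers of immature and mature B cells (10 genes) summed in FrB to 7533 to 12150 CPM in WT and 717.0 to 2432 CPM in mutant libraries, without overlap. Of the 10, 6 were called lower in mutant FrB libraries, beside 182 of all 10562 genes tested in FrB. The part of these markers in the results below was not tested.

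For genes whose level differed between WT fractions, the promoter is shown to give the sequence that precedes the start of transcription. RefSeq (GRCm38.p6) lists a single promoter window, from 250 bases before to 50 bases after the start, for 58 of the 76 genes. The windows below belong to the 4 genes that passed the test at a WT step with all libraries and had such an entry, and run 5′ to 3′ on the strand of the gene. The window of Ndufaf4 lies at chr4:24897833-24898132 on the plus strand, Atp5b at chr10:128083057-128083356 on the plus strand, Ndufc1 at chr3:51408906-51409205 on the minus strand and Ndufs5 at chr4:123718137-123718436 on the minus strand. Capitals mark exact matches, on either strand, to GCATGCGC, the core of the site of the factor NRF1, or to AAGATGGC, the site of YY1.
Ndufaf4 promoter: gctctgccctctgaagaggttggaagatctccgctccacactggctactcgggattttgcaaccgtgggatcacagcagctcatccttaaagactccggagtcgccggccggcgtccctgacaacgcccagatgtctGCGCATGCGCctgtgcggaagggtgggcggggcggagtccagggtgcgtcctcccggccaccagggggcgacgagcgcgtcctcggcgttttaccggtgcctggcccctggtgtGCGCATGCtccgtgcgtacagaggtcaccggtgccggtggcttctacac
Atp5b promoter: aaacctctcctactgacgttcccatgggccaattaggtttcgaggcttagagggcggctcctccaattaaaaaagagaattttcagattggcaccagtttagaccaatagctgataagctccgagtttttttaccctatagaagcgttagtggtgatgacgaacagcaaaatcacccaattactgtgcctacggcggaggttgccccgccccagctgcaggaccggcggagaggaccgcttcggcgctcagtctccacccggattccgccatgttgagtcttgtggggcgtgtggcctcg
Ndufc1 promoter: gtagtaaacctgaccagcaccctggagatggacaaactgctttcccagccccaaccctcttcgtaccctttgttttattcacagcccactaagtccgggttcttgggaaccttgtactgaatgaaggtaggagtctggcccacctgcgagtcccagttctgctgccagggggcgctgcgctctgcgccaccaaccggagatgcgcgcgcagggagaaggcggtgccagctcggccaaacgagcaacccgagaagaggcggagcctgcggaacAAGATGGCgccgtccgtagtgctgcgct
Ndufs5 promoter: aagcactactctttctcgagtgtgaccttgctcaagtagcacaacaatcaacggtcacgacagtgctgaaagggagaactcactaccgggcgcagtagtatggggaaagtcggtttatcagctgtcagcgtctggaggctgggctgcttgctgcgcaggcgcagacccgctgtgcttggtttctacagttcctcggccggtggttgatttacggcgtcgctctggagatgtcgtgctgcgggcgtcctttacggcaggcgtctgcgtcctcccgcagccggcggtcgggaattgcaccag
The Ndufaf4 window held GCATGCGC or its reverse complement 3 times, with overlapping matches joined in capitals, and the Ndufc1 window held AAGATGGC 1 time. Neither set of letters, nor CCGGAAGT, the site of the ETS factor GABPA, was found in the windows of Atp5b and Ndufs5. Of the 58 windows, 11 (19.0%) held GCATGCGC, against 891 of 32851 (2.71%) of all windows in the table. AAGATGGC was found in 10 (17.2%), against 2.75% of all, and CCGGAAGT in 4 (6.9%), against 3.89%. At least one of the 3 occurred in 24 of the 58 (41.4%) and in 8.83% of all windows. These are matches of letters and not measured binding.

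Levels per kilobase of transcript differed between the complexes and within each of them. The median level over the 40 libraries had a median over genes of 464.5 CPM per kb for the ATP synthase, 358.6 for complex III, 308.8 for the accessory and 177.0 for the core subunits of complex I, 215.2 for complex II and 32.8 for the assembly factors. Assembly factors thus stood lowest as a group. Within the core of complex I, Ndufs8, an iron-sulfur subunit, was at 550.7 CPM per kb and Ndufs1, the longest of the core transcripts and also an iron-sulfur subunit, at 43.97. Accessory subunits ran from 34.53 CPM per kb for Ndufb4 to 779.71 for Ndufa2. In complex II, Sdhb, the iron-sulfur subunit, was at 533.7 CPM per kb and Sdhc, a membrane anchor, at 55.21.

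In complex III, the hinge protein gene Uqcrh had the highest median level per length of all 76 genes, 1046.56 CPM per kb, and Uqcrc2, a core protein gene, the lowest of that complex, 142.95. The ATP synthase ran from 969.54 CPM per kb for Atp5e, the epsilon subunit, to 6.84 for Atp5g2. Atp5g1, Atp5g2 and Atp5g3 encode the same membrane ring subunit c, and their levels per length were 59.68, 6.84 and 545.5 CPM per kb. The value of Atp5g1 rests on a length of 2675 nt, the median over its principal transcripts, the shortest of which has 596 nt. With the shorter length its level per length would be higher. The same holds for other genes, among them Ndufb2 (2413 against 455 nt), Ndufab1 (2447 against 1416 nt), Uqcrq (963 against 405 nt) and Ndufc1 (782 against 315 nt). For 12 genes, among them Atp5g1, Atp5g2, Atp5l, Atp5k, Atp5h, Uqcrb and Ndufs5, another gene matched at least 50% of the transcript at 95% identity or more, and their counts are uncertain for that reason. Ndufa4, first assigned to complex I and later to complex IV, was at 854.52 CPM per kb, and its paralog Ndufa4l2 was detected in 6 libraries.

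**Figure D1:**
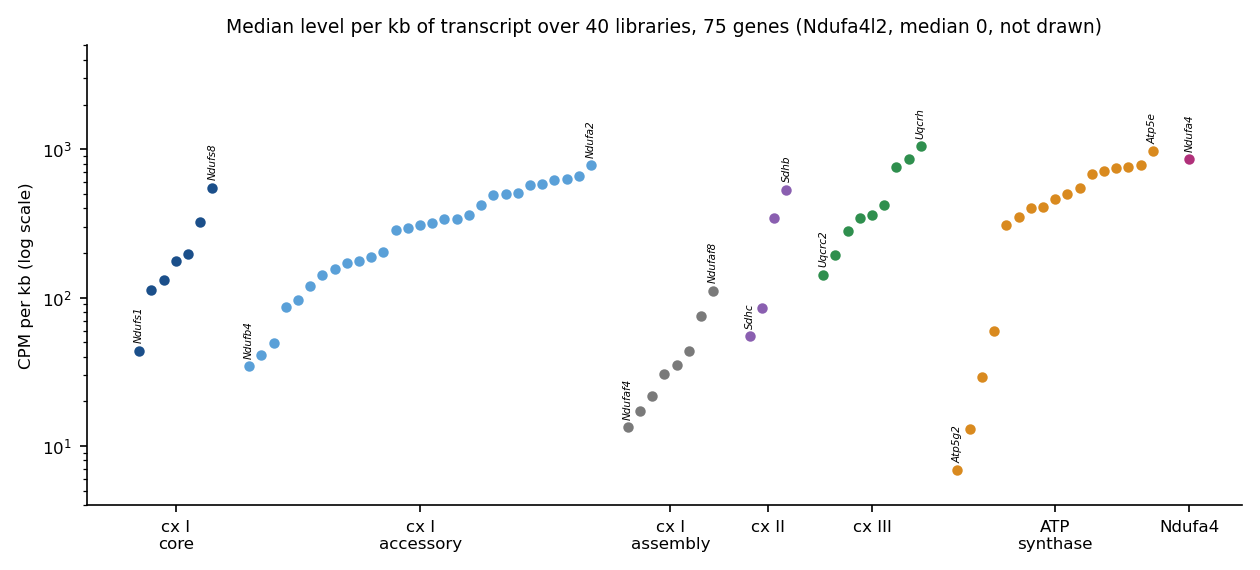
Median level over 40 libraries in CPM per kb of transcript (log scale), 1 point per gene, grouped by complex and ordered within each, with the highest and lowest gene of each complex named. Assembly factors lie between 13.44 (Ndufaf4) and 111.47 (Ndufaf8), and the highest points are Uqcrh and Atp5e.

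Across WT fractions the 76 genes together took the largest share of counts in FrC and the smallest mean share in FrE. The share was 2.37% ± 0.135 (SD, n = 5) in FrB, 2.77% ± 0.196 in FrC, 2.12% ± 0.186 in FrD and 1.89% ± 0.335 in FrE. The FrC libraries (2.47 to 3.02%) lay above all FrD libraries (1.84 to 2.29%), while FrD overlapped FrE (1.4 to 2.21%) and FrB (2.25 to 2.56%) overlapped FrC and FrD. The ATP synthase genes summed to 8169 ± 475 CPM in FrB, 10356 ± 519 in FrC, 6754 ± 510 in FrD and 6125 ± 858 in FrE. For this complex FrC stood above each other fraction with no overlap: its lowest library was at 9559.5 CPM and the highest outside it, in FrB, at 8903 CPM. Complex III summed to 4448 ± 453 CPM in FrC and 3151 ± 256 in FrD, again without overlap. Complex I core subunits summed to 2454.5 ± 284 CPM in FrC and 1797 ± 566 in FrD, and complex II to 1911 ± 179 and 1438 ± 311, with overlap in both. Accessory subunits of complex I summed to 7445 ± 1007 CPM in FrC and 7176 ± 1361 in FrD, a difference within the spread between mice.

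**Figure D2:**
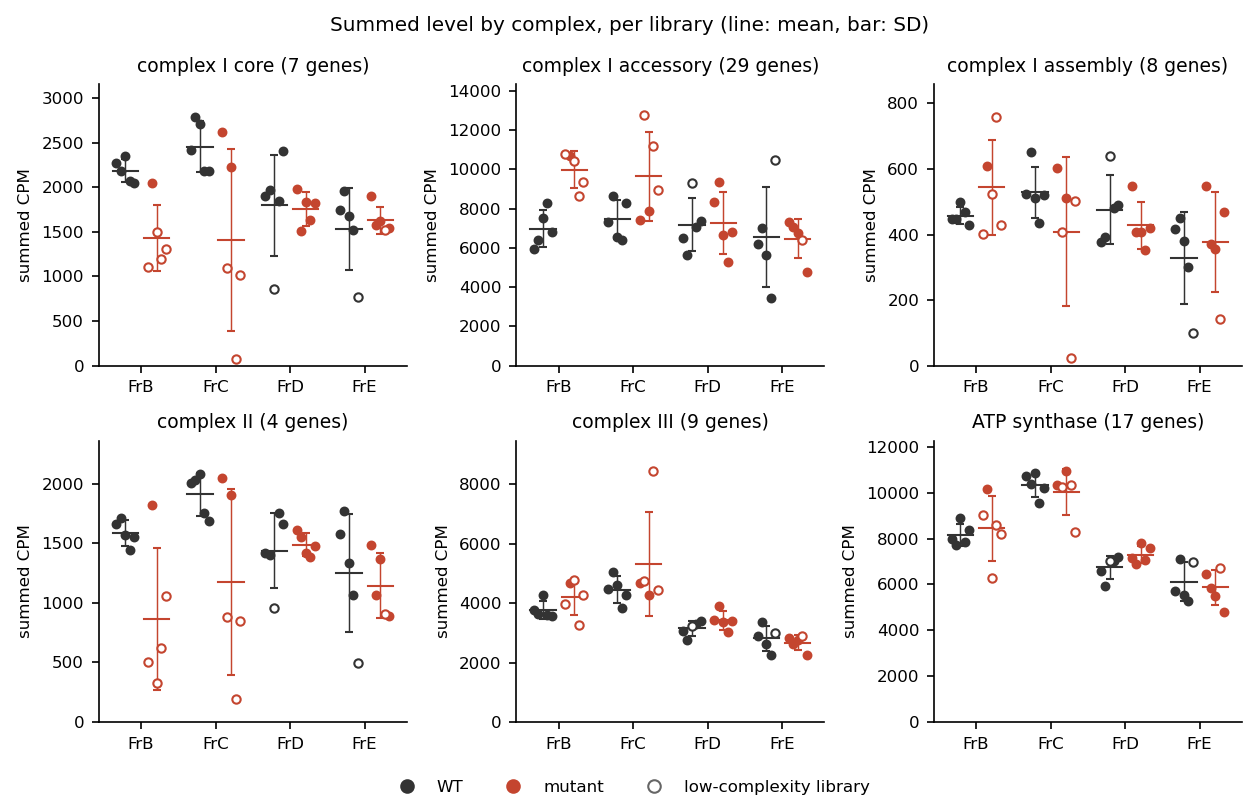
Summed CPM of the genes of each complex in every library (y axis, linear, from 0) by fraction and genotype, with low-complexity libraries as open circles, group means as lines and SD as bars. ATP synthase and complex III are highest in FrC in WT, and the open circles lie low for complex I core and complex II subunits and mostly high for complex I accessory subunits.

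From FrC to FrD in WT cells, 3 of the 75 genes tested fell and none rose. They were Atp5b and Atp5a1, the beta and alpha subunits that form the catalytic head of the ATP synthase, and Ndufaf4, an assembly factor of complex I. Over all genes 598 of 11439 (5.23%) passed the same test, 261 of them lower (2.28%), so the count of members, 3 of 75, is near that share. The CPM of the FrC and FrD groups did not overlap for 16 of the 75 (15 lower in FrD), against 1374 of 11439 genes in either direction (12.0%).

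Atp5b was at 2612, 1962, 2926, 2326 and 2019 CPM in the FrC libraries of mice 1, 2, 3, 6 and 7 and at 687.6, 915.6, 995.6, 636.7 and 895.0 CPM in their FrD libraries. Each FrD library was lower than each FrC library, and the fitted log2 fold change was -1.23 ± 0.25 (SE, adjusted p = 0.00479, edgeR). Atp5a1 was at 1814, 1324, 1991, 1824 and 1399 CPM in FrC and at 719.6, 694.8, 425.0, 607.1 and 770.2 CPM in FrD. These groups did not overlap either, and the log2 fold change was -1.15 ± 0.25 (adjusted p = 0.0086). Ndufaf4 was at 102.0, 88.9, 84.4, 54.9 and 32.6 CPM in FrC and at 4.9, 21.3, 5.2, 30.0 and 24.1 CPM in FrD. The groups touched without overlap, and the log2 fold change was -1.91 ± 0.51 (adjusted p = 0.0282).

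The gamma subunit gene Atp5c1, which turns inside that catalytic head, had a log2 fold change of -0.01 at this step, and the c-ring genes Atp5g1, Atp5g2 and Atp5g3 had -0.54, -1.84 and -0.20, none past the test. In complex III, Cyc1 (cytochrome c1) was at -0.97, Uqcrc1 and Uqcrc2 (core proteins) at -0.83 and -0.29 and Uqcrfs1 (the Rieske protein) at -0.12. In complex II the values were -0.87 for the flavoprotein gene Sdha, 0.18 for Sdhb, -0.46 for Sdhc and -0.22 for Sdhd, and in the core of complex I they were -0.87 for Ndufv1, which binds NADH, and -0.46 for Ndufs1. The highest positive values of low p were 1.18 for Ndufa6, 0.88 for Uqcrh and 0.87 for Ndufb11 and did not pass. Ndufa4 was at -0.34. By group, 5 of 7 core and 7 of 9 complex III genes had a negative value, against 12 of 29 accessory genes, and the median over the 75 was -0.13, beside 0.10 over all genes tested. Without the low-complexity libraries 17 of 29 accessory genes had a negative value, and their median moved from 0.15 to -0.07. The counts for core and complex III genes stayed at 5 of 7 and 7 of 9.

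Without the low-complexity libraries, of which 1 (FrD, mouse 3) lies in this step, 12 genes fell and 1 rose. The 3 genes above were among the 12, with log2 fold changes of -1.46 for Atp5b, -1.12 for Atp5a1 and -1.73 for Ndufaf4. The others were Cyc1 (-1.32), Atp5g1 (-1.29), Uqcr11 (-1.03), Sdha (-0.99), Ndufa10 (-0.83), Ndufab1, the mitochondrial acyl carrier protein (-0.80), Ndufv1 (-0.79), Ndufb2 (-0.71) and Uqcrc1 (-0.66). Ndufaf3, an assembly factor, was the gene that rose (0.75). The background of genes called lower was 878 of 11657 (7.53%) in that fit, and 12 of 75 is above it. Cyc1 shows the change of setting: its FrC libraries were at 565.3, 660.3, 703.4, 540.1 and 481.2 CPM and its FrD libraries at 254.8, 178.1, 350.1, 205.4 and 220.6 CPM, the third of these being the low-complexity one.

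All of these values are relative to the other genes of a library. The log2 ratio of gene counts to counts of the ERCC spike-in RNA was 9.68 to 11.6 in WT FrC and 6.99 to 9.54 in WT FrD. Scaled to the spike-ins, 68 of the 75 genes were called lower in FrD and none higher, beside 6596 of 11439 genes (57.7%) called lower, and the median log2 fold change was -2.66 over the members and -2.39 over all genes. In such libraries fewer cells and less RNA per cell cannot be told apart. With the mouse as a block, since fractions of a mouse share its number, 2 genes were called at this step (Atp5b and Atp5a1), and without WT mouse 1 none was.

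**Figure D3:**
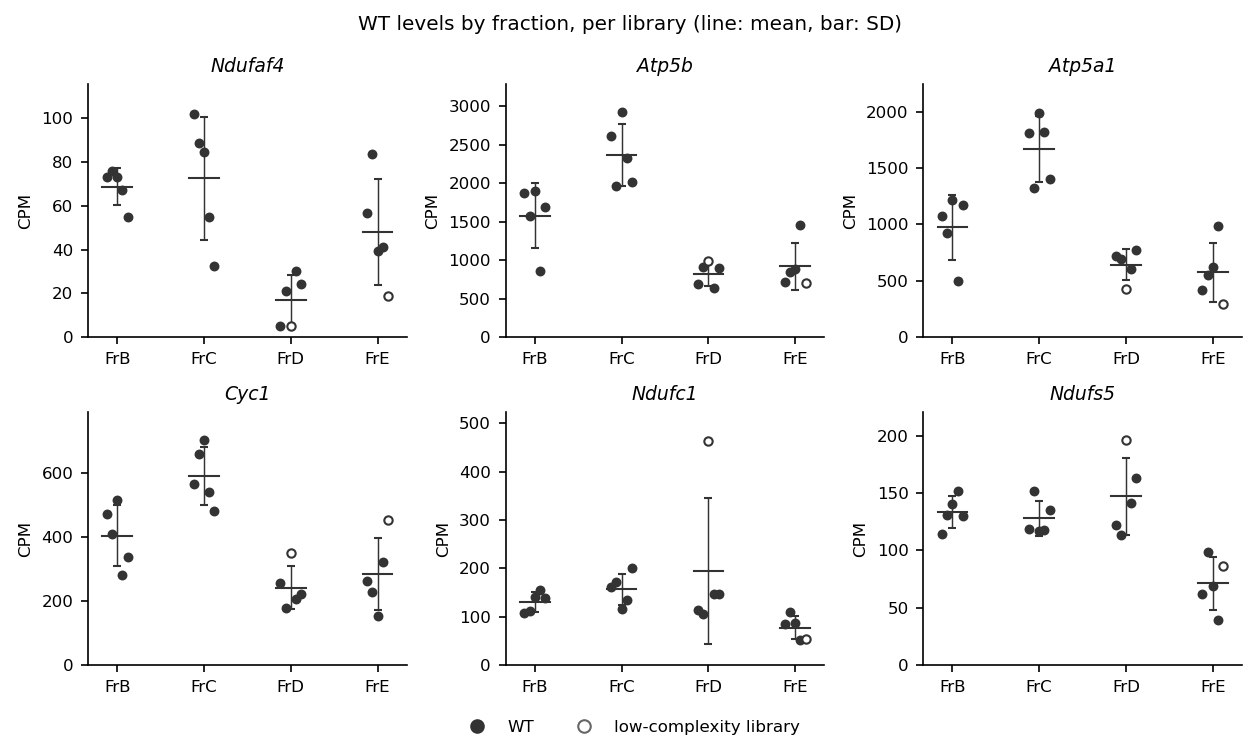
CPM (linear, from 0) of 6 genes in each WT library by fraction, with low-complexity libraries as open circles, means as lines and SD as bars. Atp5b, Atp5a1, Cyc1 and Ndufaf4 are lower in FrD than in FrC in every mouse, and the FrD mean of Ndufc1 is raised by the open circle at 463.4 CPM.

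From FrD to FrE in WT cells, 2 accessory subunit genes of complex I fell, Ndufc1 and Ndufs5, and none of the 75 rose. The background was 608 of 11439 genes (5.32%), with 278 lower (2.43%), and 2 of 75 is near the latter share. Ndufs5 was at 122.0, 113.4, 196.3, 141.0 and 162.7 CPM in FrD and at 61.8, 98.9, 69.3, 39.1 and 86.3 CPM in FrE. No FrE library reached the lowest FrD library, and the log2 fold change was -1.11 ± 0.32 (SE, adjusted p = 0.0469). Ndufc1 was at 112.9, 105.3, 463.4, 147.6 and 146.7 CPM in FrD and at 84.3, 109.0, 85.9, 52.5 and 53.4 CPM in FrE. Its groups overlapped, and its log2 fold change of -1.55 ± 0.43 (adjusted p = 0.037) became -0.63 and was not called without the low-complexity libraries. Ndufs5 then stayed called at -0.998, and Ndufaf4 was called higher at 1.47.

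Ndufaf4 in FrE was at 56.5, 83.8, 39.5, 41.2 and 18.8 CPM, and its log2 fold change with all libraries was 1.49 (adjusted p = 0.0834). The next values by p were 1.63 for Atp5g2 and 0.54 for Ndufb10 on the positive side and -0.89 for Ndufa6 on the negative side. Catalytic ATP synthase genes differed little at this step, with -0.25 for Atp5a1, 0.03 for Atp5b and 0.01 for Atp5c1. Of the 75 values 54 were negative, with a median of -0.23 beside 0.01 over all genes. With the mouse as a block none of the 75 was called, and leaving out a WT mouse gave 0 or 1 calls. From FrB to FrC, 0 of the 75 were called by edgeR, 1 had an unadjusted p under 0.05, and DESeq2 called 0, with 19 of 11439 genes (0.166%) called. Among the lowest p were those of Atp5a1 (log2 fold change 0.70) and Atp5b (0.51) on the positive side and Ndufa1 (-0.35), Ndufv3 (-0.35) and Ndufb11 (-0.18) on the negative side.

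In FrB pro-B cells, 18 of the 75 genes rose in mutant libraries and none fell. They were small subunits for the most part: 8 accessory subunits of complex I, 3 small subunits of complex III, 6 ATP synthase subunits and the assembly factor Ndufaf8. Over all genes 778 of 10562 (7.37%) were called, 596 of them higher (5.64%), and 18 of 75 is above that share. CPM of the groups did not overlap for 14 of the 75 (12 higher and 2 lower in mutant libraries), against 1339 of 10562 genes (12.7%), and this was so for 11 of the 18.

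Atp5k, subunit e of the ATP synthase membrane part, was at 92.9, 96.0, 128.9, 177.7 and 153.4 CPM in WT and at 518.8, 301.1, 409.9, 477.3 and 493.1 CPM in mutant libraries. The groups were well apart, and the fitted log2 fold change was 2.11 ± 0.35 (SE, adjusted p = 0.00442). Uqcr11, a small subunit of complex III, was at 341.8, 419.9, 499.7, 423.1 and 323.9 CPM in WT and at 1214, 828.6, 866.5, 1102 and 872.6 CPM in mutant libraries. Its log2 fold change was 1.61 ± 0.27 (adjusted p = 0.00481), without overlap. Ndufa2 of complex I was at 303.0, 289.4, 417.7, 497.5 and 375.6 CPM in WT and at 1347, 687.2, 1834, 739.8 and 865.6 CPM in mutant libraries, and the fitted log2 fold change was 1.99 ± 0.41 (adjusted p = 0.0113). Here too each mutant library lay above each WT library.

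Ndufaf8 was at 70.9, 72.8, 70.5, 98.9 and 81.1 CPM in WT and at 149.9, 173.3, 482.2, 288.7 and 241.1 CPM in mutant libraries, and the fitted log2 fold change was 2.24 ± 0.48 (adjusted p = 0.013). The others of lowest p were Ndufb7 (log2 fold change 1.52), Atp5mpl (1.41), Atp5e (1.38), Atp5g3 (1.18), Ndufa13 (1.34) and Ndufb5 (1.33). The remaining 8, namely Ndufa5, Ndufb3, Ndufa3, Ndufs6, Uqcrh, Uqcrq, Atp5j2 and Atp5h, had log2 fold changes of 1.03 to 1.85.

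None of the genes for the larger, catalytic subunits was called. In the core of complex I 6 of 7 genes had a negative value and none was called. Ndufs1 was at 177.2, 120.4, 135.5, 58.4 and 114.1 CPM in WT and at 7.9, 93.6, 43.0, 10.8 and 33.9 CPM in mutant libraries, the second being mouse 5. These overlapped, and the log2 fold change was -1.38 ± 0.65 (adjusted p = 0.212). Ndufv1 was at -0.26. All 4 genes of complex II had a negative value, -0.11 for Sdha, -0.62 for Sdhb, -1.05 for Sdhc and -1.07 for Sdhd. Without the low-complexity libraries, which leaves mouse 5 as the only mutant library, 3 of these 4 genes lay above 0 (median 0.15). The median of the complex I core moved from -0.79 to -0.19 in that setting, with 6 of 7 genes still negative. Sdhd, a membrane anchor, was at 365.6 to 548.6 CPM in WT and at 113.2, 491.0, 7.2, 140.2 and 286.0 CPM in mutant libraries, where mouse 5 was within the WT range and the other 4 below it. Complex III core genes were at -0.57 (Uqcrc1), -0.81 (Uqcrc2), -0.62 (Cyc1) and -0.24 (Uqcrfs1). In the ATP synthase the values were 0.12 for Atp5a1, -0.37 for Atp5b and -0.99 for Atp5c1, and 0.64, 0.15 and 1.18 for the c-ring genes Atp5g1, Atp5g2 and Atp5g3. The lowest p among negative values were those of Atp5c1 (adjusted p = 0.13), Ndufv2 (-0.81) and Ndufs8 (-0.88), and Ndufa4 was at 0.02.

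The values followed transcript length. Among the 37 tested genes with transcripts of at most 959 nt, the median length of the 76, 15 were called higher and the median log2 fold change was 0.95. Among the 38 longer ones, 3 were called higher and the median was -0.47. Uqcrq, among these 3, stands at 963 nt by its median length, and its shortest principal transcript has 405 nt. Over all genes, 76 of 687 short and 518 of 9772 longer ones were called higher, with medians of 0.225 and 0.10. Spearman's rho of log2 fold change with length was -0.52 over the 75 genes and 0.24 over 10459 genes with a length, as a description over genes that share libraries. Without the low-complexity libraries rho was -0.56 over 76 members and 0.14 over all genes, and 37 of 38 short members lay above 0 (median 0.625), beside 16 of 38 longer ones (median -0.03). In the 10 low-complexity libraries short transcripts took 51.8 to 88.6% of the counts of the 76 genes, and in the other 30 they took 36.4 to 61.0%. The log2 ratio of accessory to core counts of complex I was 2.07 to 7.13 (median 3.22) in the 10 libraries and 1.17 to 2.63 (median 1.76) in the other 30.

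**Figure D4:**
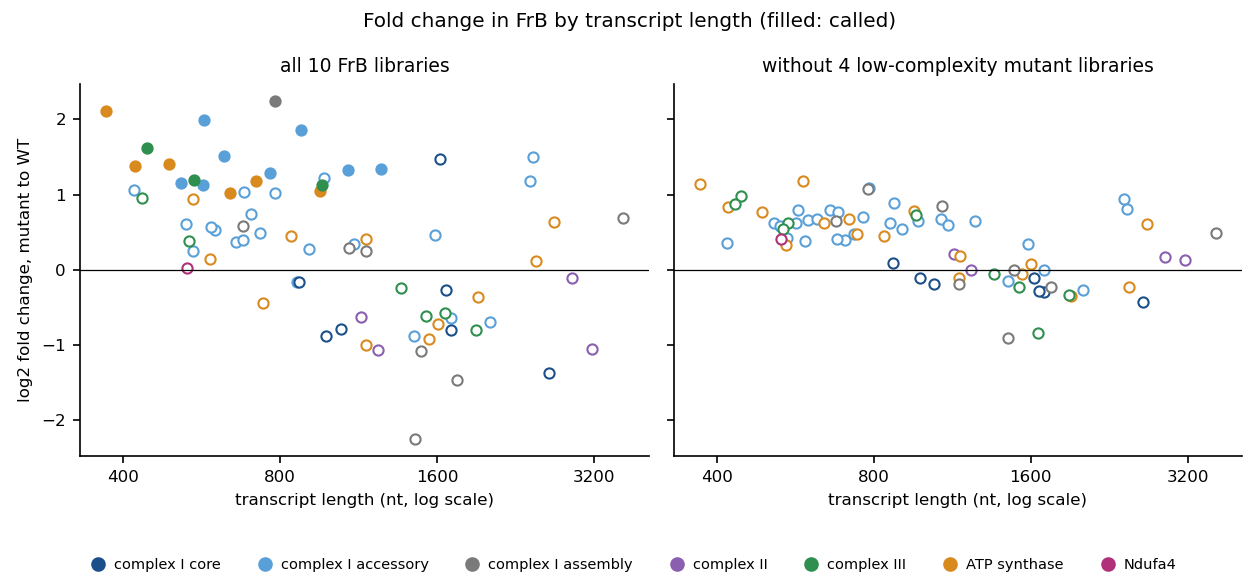
Fold change in FrB (y axis, log2 mutant to WT) of each tested gene against transcript length (x axis, nt, log scale), with all 10 libraries on the left and without the 4 low-complexity mutant libraries on the right, coloured by complex and filled where called. Of the 37 short transcripts 34 lie above 0 on the left, and the negative values of the longer ones on the left are nearer 0 on the right.

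Low complexity and genotype move together in FrB, where 4 of 5 mutant and no WT libraries are of that kind, and their effects cannot be told apart by the test. Without those libraries the mutant group is mouse 5 alone, so that the spread comes from the WT libraries and mouse 5 is assumed to vary like them. In this fit 0 of 76 genes were called by edgeR, with 25 at an unadjusted p under 0.05, beside 152 of 12697 genes (1.20%) called. Atp5k was then at 1.15, Ndufaf8 at 1.07, Uqcr11 at 0.98 and Ndufa2 at 0.80. By CPM, the library of mouse 5 lay above every WT library for all 18 called genes, a set that this library helped to choose, and for 46 of the 75 (61.3%), against 2791 of 10562 genes (26.4%). Of these 46, 23 were accessory subunits of complex I (of 29 tested), 11 ATP synthase genes (of 17) and 5 complex III genes (of 9), and 1 was a core subunit (of 7). The share of counts of all 76 genes was 3.08% in that library and 2.25 to 2.56% in WT.

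The count of 18 also varied with the mice: 5 without WT mouse 1 or WT mouse 2, 8 without WT mouse 3 or WT mouse 7, 11 without WT mouse 6 or mutant mouse 4, and up to 27 without mutant mouse 5. With the set of the second sequencing index as a covariate 8 were called and in a fit of all 40 libraries 5. With spike-in scaling 1 was called, Atp5k (2.64), beside 124 of 10562 genes called higher and 24 lower. Counts over all genes in the other settings are not given here, so those counts of members stand without a background.

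In FrC cells the fitted differences between genotypes were wide and none of the 75 passed (0 of 10299 genes, 0%, were called at all). Of the 75, 23 had an unadjusted p under 0.05. DESeq2 called 4 higher, with its count over all genes not given here. Positive values of lowest p were 3.21 ± 1.01 (SE) for Atp5e, 3.06 ± 0.96 for Ndufc1 and 3.43 ± 1.11 for Ndufa6 (adjusted p = 0.271 each), and negative ones -0.997 for Ndufa8, -0.95 for Ndufv1 and -1.71 for Atp5s. Ndufa6 was at 161.6, 153.3, 132.4, 165.8 and 217.5 CPM in WT and at 147.5, 288.4, 228.3, 1040 and 179.7 CPM in mutant libraries, so that mouse 9 was far above the rest and the others lay within or just above the WT range. That library held 1723215 counts, and its complex I core genes summed to 79.5 CPM, against 2181 to 2784 CPM in WT. Without the low-complexity libraries, which leaves mutant mice 4 and 8, the values became 0.15 for Atp5e, 0.13 for Ndufc1 and 0.20 for Ndufa6. In the fit of all 40 libraries 24 members were called higher, beside 618 of 12397 genes (4.99%).

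In FrD late pre-B cells 0 of the 75 were called by edgeR, with 1 at an unadjusted p under 0.05 and 0 by DESeq2, and 1 of 10043 genes (0.00996%) was called. The lowest p were those of Ndufaf5 (log2 fold change -1.53), Ndufa9 (-0.51) and Ndufa11 (-0.49) on the negative side and Uqcrq (0.49), Sdha (0.43) and Atp5a1 (0.32) on the positive side. Without the low-complexity library of WT mouse 3, 0 of the 75 were called, beside 11 of 10371 genes called higher and 28 lower. Then 43 of the 75 lay above 0 (median 0.08), against 22 with all libraries (median -0.19). Of 29 accessory genes 20 lay above 0, against 9. In FrE immature cells 0 of the 75 were called by edgeR, with 2 at an unadjusted p under 0.05 and 0 by DESeq2, and 0 of 9662 genes (0%) were called. Values with all libraries were -0.89 for Uqcrc2, -0.79 for Cyc1 and -0.49 for Atp5b, and 0.42 for Ndufs4, 0.42 for Ndufs5 and 0.35 for Ndufc1. Without the low-complexity libraries of WT mouse 7 and mutant mouse 9, 0 of the 75 were called, beside 16 of 9866 genes higher and 12 lower. Then 35 of the 75 lay above 0 (median -0.02), against 26 with all libraries (median -0.18). Of 29 accessory genes 19 lay above 0, against 11. Ndufs4, a late-added subunit of complex I, was at 165.9, 231.8, 214.3, 123.3 and 138.6 CPM in WT FrE and at 288.1, 244.0, 270.7, 285.0 and 261.1 CPM in mutant FrE. Those groups did not overlap, and the adjusted p was 0.999. The fourth mutant value is that of mouse 9, whose library held only 42111 counts. In FrE the groups did not overlap for 2 of the 75, and the share over all genes is not given here.

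With the 4 fractions of each mouse summed, 0 of the 75 were called by edgeR, 16 had an unadjusted p under 0.05, DESeq2 called 0, and 76 of 12036 genes (0.631%) were called. The lowest p were at 0.60 for Atp5k, 0.43 for Uqcrq and 0.45 for Ndufaf8 and at -0.47 for Ndufv2, -0.45 for Ndufa9 and -0.35 for Cyc1. All 4 complex II genes and 6 of 7 core genes were negative, and 22 of 29 accessory genes were positive. These sums include the low-complexity libraries of FrB and FrC, so they are no separate look at the FrB pattern. Counts were summed unscaled: in mutant mouse 9 FrD held 43372070 counts, beside 1723215 in FrC and 42111 in FrE. Without low-complexity libraries 3 of 4 complex II genes and 7 of 7 core genes were negative, and 18 of 29 accessory genes were positive (median 0.02). Mutant mouse 9 is then left with FrD alone and mutant mouse 10 with FrD and FrE, while WT mice 1, 2 and 6 keep all 4 fractions. The part of this mix of fractions in the values was not tested.

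**Figure D5:**
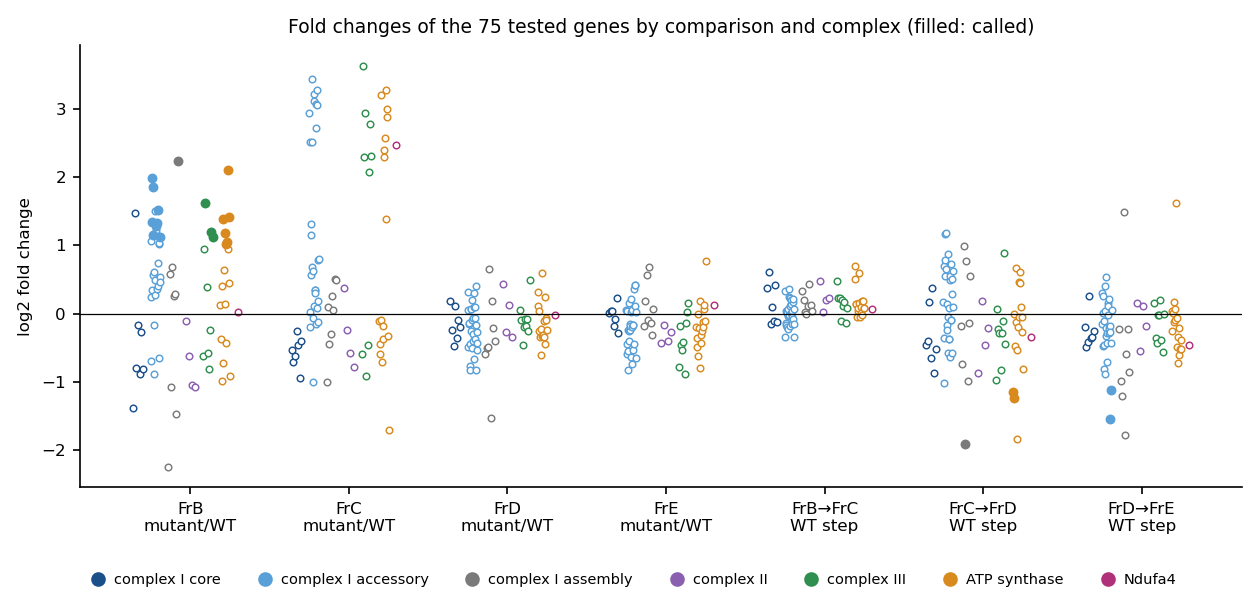
Log2 fold change of each of the 75 tested genes (y axis) in the genotype comparison of each fraction and in each WT step (x axis), coloured by complex and filled where called. The 18 called genes in FrB lie between 1.03 and 2.24, and the FrC values, with none called, spread more widely than those of FrD and FrE.

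Whether a step between fractions differed by genotype was tested on all 40 libraries. At the step from FrC to FrD, 19 members were called, all with a more negative step in mutant cells: 10 accessory subunits of complex I, 4 complex III genes and 5 ATP synthase genes. The background was 370 of 12397 genes (2.98%), of which 336 were lower (2.71%). The 10 of lowest p were Ndufc1 (log2 difference -4.14 ± 0.88, SE, adjusted p = 0.0232), Atp5j2 (-3.89), Uqcr10 (-4.02), Atp5e (-3.80), Atp5g3 (-2.83), Uqcrh (-3.29), Ndufb7 (-3.72), Atp5mpl (-3.20), Ndufb11 (-3.79) and Ndufa1 (-3.14). The others were Ndufa11, Ndufa6, Ndufb2, Ndufb8, Ndufc2, Ndufa5, Uqcr11, Uqcrb and Atp5h. On the positive side the lowest p were those of Ndufa8 (1.04), Uqcrc1 (0.82) and Ndufv1 (0.83).

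Uqcr10 encodes a small subunit of complex III. Its mutant FrC libraries were at 374.5, 581.2, 424.2, 2589 and 494.5 CPM and its mutant FrD libraries at 414.1, 435.5, 307.8, 197.4 and 315.0 CPM. In WT it was at 326.7, 428.4, 289.2, 292.3 and 437.5 CPM in FrC and at 225.5, 228.3, 407.7, 351.9 and 284.6 CPM in FrD. The high value in FrC is that of mutant mouse 9. Without mutant mouse 9 none of the 75 was called, nor was any without WT mouse 1, 2, 3 or 6, and without WT mouse 7 there were 10. Without the low-complexity libraries 0 were called, with the mouse as a block 0, and 13 of the 19 values changed sign. At the step from FrB to FrC 0 members were called (65 of 12397 genes, 0.524%), and DESeq2 called 2. Among the lowest p were those of Ndufa4 (2.69), Atp5j (3.25) and Ndufb11 (3.08) and of Ndufaf8 (-1.77) and Ndufb3 (-0.95). At the step from FrD to FrE 0 were called (19 genes, 0.153%) and 0 by DESeq2, with 2.22 for Ndufaf5, 1.17 for Ndufc1 and 0.84 for Ndufs5 and -0.92 for Ndufa10, -0.85 for Cyc1 and -0.86 for Ndufb10 at lowest p.

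Other genes of the pathway were followed on fixed lists. Of 14 complex IV subunit genes tested in FrB, 4 rose in mutant libraries (Cox4i1 by 1.16, Cox5a by 0.84, Cox6a1 by 0.86 and Cox7a2 by 0.99 on the log2 scale), none fell, and the median was 0.99. Over all genes 5.64% were called higher. With mouse 5 as the only mutant library the values of these 4 were 0.50, 0.83, 0.64 and 0.757, none of them called. Of 18 genes of the tricarboxylic acid cycle none was called in FrB and 13 had a negative value. Of 7 genes of cytochrome c and of the adenine nucleotide and phosphate carriers none was called and 7 had a negative value. Of 22 protein import genes, Tomm7 (1.495) and Hspe1 (1.17) rose in FrB. Among 35 assembly factors outside the member rule Pet100, of complex IV, rose (1.84), and among 16 regulators of mitochondrial transcription and biogenesis Pprc1 rose (2.98). Most of the mutant FrB libraries behind these calls are of low complexity. On all 6 lists 0 genes were called in FrC, FrD and FrE.

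At the WT step from FrC to FrD, 3 of 22 import genes fell (Tomm40 by 2.55, Timm50 by 1.41 and Timm44 by 1.32) and none rose, beside 2.28% of all genes called lower and 5.23% called in either direction. Of 17 regulators Myc, a growth factor-induced transcription factor, fell by 6.02 and Ppargc1b, a coactivator, by 7.61. Of 14 complex IV genes 2 rose: Cox7a2l (1.19) and Cox6a2 (4.30), which is also on the list of plasmacytoid dendritic cell markers used here. None of 19 cycle genes, 35 assembly factors or 7 carrier genes was called at this step. From FrD to FrE, with the same listed genes tested, Myc rose (3.73). Gabpb1, a subunit of the ETS factor GABP (-1.26), and Pdhb, of the pyruvate dehydrogenase complex (-1.01), fell. Over all genes 608 of 11439 (5.32%) were called at this step, 278 of them lower (2.43%), and these calls are no result about the lists as a whole.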

How the data were processed

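RNA was measured in 40 libraries, 5 mice for each of 8 groups of genotype and fraction. The authors deposited 1 table of read counts, neither scaled nor transformed. Per the submitters' processing notes, HISAT2 2.1.0, featureCounts 1.4.6 (Subread) and DESeq2 were used with build mm10. Annotation release, strand setting and handling of multiply mapped reads were not given in the sources used here. Overlapping genes, antisense partners and near-identical copies therefore cannot be separated. Gene identifiers were matched to GENCODE M21 on the same build (21728 of 21958, the unmatched holding 0.0325% of counts), and 92 ERCC rows were kept apart. Transcript length is the median over principal protein-coding transcripts. The members and gene lists were chosen with earlier results of these data known.

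CPM are counts scaled to 1000000 gene counts in a library, and errors are SD for levels and SE for fitted changes. Tests were two-sided quasi-likelihood tests in edgeR 4.0.16 under R 4.3.3, robustly fitted with TMM normalization. Low counts were removed by filterByExpr (count 10, total 15). A call required an adjusted p under 0.05 (Benjamini-Hochberg, over every gene tested). Genotypes were compared within a fraction (10 libraries) and on counts summed per mouse. WT steps were fitted on the 20 WT libraries and differences of steps on all 40. The fits were tested on simulated counts. Fractions with the same number in their titles were taken to come from the same mouse, which the titles do not state. Their deviations correlated with a median r of -0.01 to 0.05 over the 6 steps, and a fit with the mouse as a block was an alternative. Other alternatives were RLE size factors, ERCC scaling, no filter, DESeq2 1.42.0, leaving out each mouse, leaving out low-complexity libraries, a second-index covariate and a joint fit. Replicates are separate mice. Reads carry no molecular identifiers.

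Named genes are the called members, up to 10 of lowest p in each direction, or the 3 of lowest p where fewer than 3 were called. Added to these are the complex II genes, the catalytic genes of complexes I and III, the alpha, beta, gamma and c subunits, Ndufa4, Ndufa4l2 and the highest and lowest level of each complex. The single values of 1 member are not reported here. The split at 959 nt was chosen after values were seen. Near-identical copies were sought with BLAST in the transcripts of the annotation.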

Additional observations from a re-analysis of the deposited data

Results flagged for a closer look

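Summed levels of 8 quantities (the share of all 76 genes and the 7 groups by complex) were checked in each of the 8 groups of 5 libraries, and 5 of the 64 sets had a library whose gap to its neighbour was over 0.71 of the range. Chance gives about 1 in 20. The complex I core sum of mutant FrE was highest in mouse 4, at 1896.9 CPM. Complex III in WT FrB was highest in mouse 3, at 4274.3 CPM. In mutant FrC, mouse 9 was highest for complex III, at 8459.2 CPM, and for Ndufa4 with Ndufa4l2, at 1797.2 CPM, and mouse 10 was lowest for the ATP synthase, at 8279.8 CPM. The last 3 are low-complexity libraries.

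The step from FrC to FrD differed between genotypes for 19 members by the interaction test, each more negative in mutant cells, and none was called without mutant mouse 9, without WT mouse 1, 2, 3 or 6, or with the mouse as a block.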

How the results depend on the processing

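For FrB, the 18 calls became 1 with ERCC scaling, 0 without low-complexity libraries, 8 with the index covariate and 5 in the joint fit, and leaving out a mouse gave 5 to 27. The FrC count of 0 became 4 with DESeq2 and 24 in the joint fit. For the WT step from FrC to FrD, the 3 calls became 68 with ERCC scaling, 6 with DESeq2 and 13 without low-complexity libraries, and 0 to 4 when a mouse was left out. For FrD to FrE, the 2 became 1 with RLE factors, 0 with ERCC scaling, 1 without a filter and 0 with the replicate block, and 0 to 1 when a mouse was left out. The genotype difference from FrB to FrC went from 0 to 2 with RLE factors and 2 with DESeq2, and ran from 0 to 6 when a mouse was left out. From FrC to FrD, the 19 became 0 with ERCC scaling, 12 with DESeq2, 0 without low-complexity libraries and 0 with the replicate block, and 0 to 21 when a mouse was left out. Leaving out a mouse gave 0 to 0 for FrC, FrD, FrE, the sum over fractions, the WT step from FrB to FrC and the difference from FrD to FrE. The paired fit moved no other count by over 1.5 times: with the replicate block the WT step from FrC to FrD gave 2. Counts over all genes are given above for only some of these settings. The causes were not tested.

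Signs turned for Sdhb at the WT step from FrC to FrD with ERCC scaling (-2.36) and, without low-complexity libraries, for the genotype difference from FrC to FrD of Atp5e (0.083), Atp5j2 (0.002), Atp5mpl (0.072), Ndufa1 (0.27), Ndufa5 (0.10), Ndufa6 (0.13), Ndufb11 (0.06), Ndufb2 (0.38), Ndufb7 (0.11), Ndufc2 (0.24), Uqcr10 (0.024), Uqcr11 (0.21) and Uqcrh (0.01). Called gene values kept sign in the other alternatives run. Turns of sign among genes called in neither fit are not listed here.

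The log2 ratio of mutant to WT mean sums moved per ERCC count in FrB from -0.61 to 0.10 for complex I core, 0.52 to 1.33 for accessory, 0.25 to 0.84 for assembly genes, -0.87 to -0.079 for complex II, 0.15 to 0.88 for complex III, 0.05 to 0.82 for the ATP synthase and -0.23 to 0.71 for Ndufa4 with Ndufa4l2. In FrC it moved to 2.01 for accessory genes, 1.99 for complex III, 1.38 for the ATP synthase and 2.48 for Ndufa4 with Ndufa4l2. In FrD it moved to 0.40 for complex II, 0.34 for complex III, 0.30 for the ATP synthase and 0.48 for Ndufa4 with Ndufa4l2, and in FrE to -0.40 for complex III and -0.35 for the ATP synthase. Without low-complexity libraries it moved in FrB to -0.10 for complex I core, 0.20 for complex II, 0.32 for the ATP synthase and 0.47 for Ndufa4 with Ndufa4l2, and in FrC from 0.37 to 0.038 for accessory genes, from -0.80 to -0.015 for complex I core and from -0.70 to 0.047 for complex II. Depth limits the FrE library of mutant mouse 9 (42111 counts) and the FrC library of mutant mouse 9 (1723215 counts).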
